A study of Mus musculus with 20 samples.

Results

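Car1 and Car2 encode carbonic anhydrases I and II, and their nascent RNA was measured intron by intron in murine erythroleukemia (MEL) cells, a virus-transformed mouse line arrested at an early red cell stage. The members are all introns of both genes in a pair of deposited tables, 4 of Car1 and 2 of Car2, out of 68794 introns of 8397 genes in the first table. The genes were selected on values of these same tables (their reads, splicing and splicing intermediates in both conditions). Every such value below, also a rank within 1 condition, is therefore a description, and no test of a member is given. Long-read libraries of RNA bound to chromatin, depleted of polyadenylated and ribosomal RNA, were made from wild type cells without induction (4 runs, 2 biological replicates on 2 PacBio instruments each) and from wild type cells kept in 2% DMSO for 5 days, which starts erythroid differentiation (4 runs, arranged in the same way). The deposited tables give 1 pooled line per intron and condition, called here the uninduced and the induced pool, and do not say which runs it holds, so there is no spread between replicates, and intervals cover counting error only. The other 12 samples of the series, which include run-on libraries and libraries of cells carrying an added globin transgene, were not analysed here.

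Carbonic anhydrases interconvert carbon dioxide and bicarbonate. In red cells the cytosolic forms I and II let blood carry carbon dioxide as bicarbonate, which leaves and enters through the anion exchanger Slc4a1 (band 3), and form II is the faster enzyme. Both genes lie in a cluster of cytosolic carbonic anhydrase genes, and mouse Car1 is known to be transcribed from a distal promoter in erythroid cells and from a proximal one in colon.

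Car1 (ENSMUSG00000027556.15) lies on the minus strand of chromosome 3 in GRCm38, and its complete transcript Car1-203 spans 14766216 to 14808365 with 8 exons and 7 introns. Car2 (ENSMUSG00000027562.12) lies on the plus strand of the same chromosome, and its complete transcript Car2-201 spans 14886428 to 14900770 with 7 exons and 6 introns. The transcript starts face away from each other at a distance of 78.1 kb, with Car3 between them. Introns are numbered here along these complete transcripts. The tables use 1 transcript per gene, and for both genes it is one annotated without its 3′ end (Car1-202 and Car2-202), so introns 6 and 7 of Car1 and introns 3 to 6 of Car2 were not analysed here.

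Car1 intron 1 (14778409 to 14808301, 29893 bases, in the 5′ UTR) joins the distal first exon to the exon with the start codon and is shared by Car1-202 and Car1-203. The third transcript, Car1-201, starts inside that intron and cannot be spliced at it. Intron 4 (14770904 to 14776217, 5314 bases) and intron 5 (14770234 to 14770807, 574 bases) lie between coding exons in all 3 transcripts. The remaining Car1 line (14776337 to 14778347, 2011 bases) is an intron in 1 of 3 transcripts only: in the other transcripts it holds introns 2 and 3 with the coding exon 3 between them (14777729 to 14777926), which is 198 bases or 66 codons long. It is called the exon 3 skipping intron here. Car2 intron 1 (14886787 to 14887833, 1047 bases) and intron 2 (14888032 to 14895021, 6990 bases) lie between coding exons of Car2-201.

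**Figure D1:**
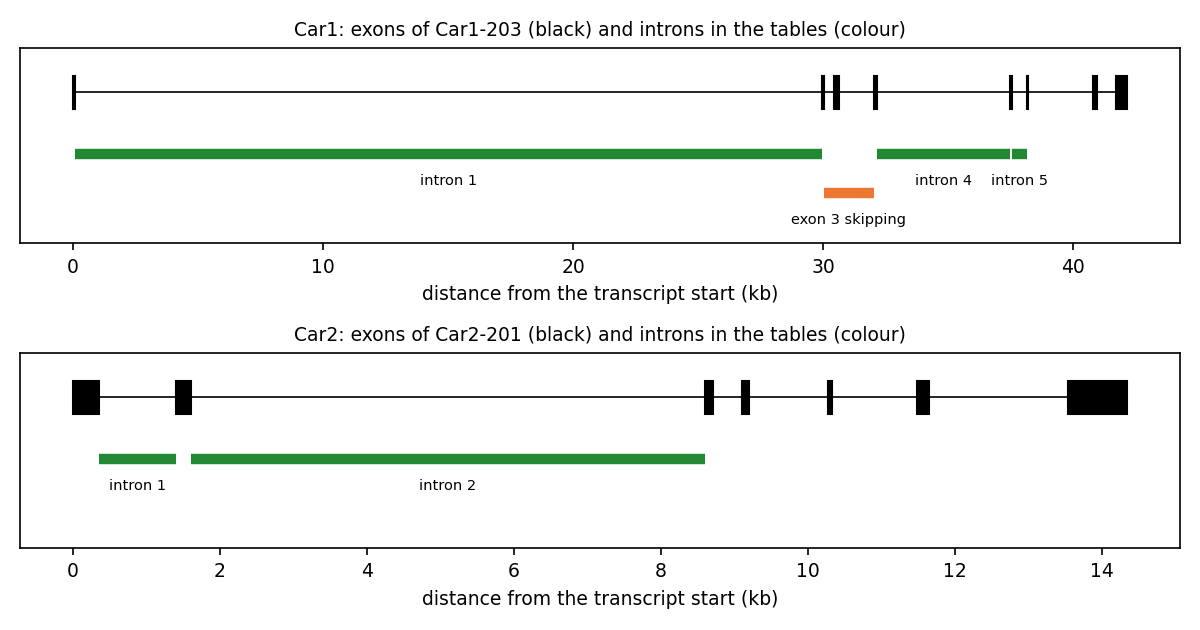
Exons of the complete transcripts of Car1 and Car2 (black boxes) and the introns that the tables hold (coloured bars), against distance from the transcript start in kilobases. Intron 1 takes up most of Car1, and the orange bar is the 2011-base intron that contains exon 3.

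The splice sites are shown because they mark the ends of each listed intron. The deposited table gives 9 bases at the 5′ site (3 of the exon, 6 of the intron) and 23 bases at the 3′ site (20 of the intron, 3 of the exon). Both are printed 5′ to 3′ on the gene's strand, with the first GT and the last AG of the intron in capitals.
Car1 intron 1, 5′ site: gctGTgagt
Car1 intron 1, 3′ site: catatcatttctctttacAGgaa
Car1 exon 3 skipping intron, 5′ site: atgGTaaga
Car1 exon 3 skipping intron, 3′ site: ataactctctttcatttcAGttc
Car1 intron 4, 5′ site: gagGTaatg
Car1 intron 4, 3′ site: ttacatgtcgcctctttcAGctt
Car1 intron 5, 5′ site: aagGTgagt
Car1 intron 5, 3′ site: tttttcctttaattatctAGgtt
Car2 intron 1, 5′ site: acgGTgagt
Car2 intron 1, 3′ site: agctctcttctcatctctAGgac
Car2 intron 2, 5′ site: cagGTcagt
Car2 intron 2, 3′ site: tgcatgcattataattccAGtgc

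All 6 introns have GT at the start and AG at the end. The 5′ site of Car1 intron 1 stands in lower case letters in the deposited table, as do letters in 71 of 6537 5′ sites. Lower case is the usual mark of repeats in a genome sequence, which was not checked here. The authors' 5′ score of that site, 7.39, is the lowest of the members and above that of 24.0% of introns. Car2 intron 1 has the highest, 11.45, above 99.2% of introns.

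At the 3′ sites, 5 of the members scored from 8.84 to 11.16, against a median of 8.70 over all introns. Car2 intron 2 scored 3.56, above 3.72% of introns. It has 10 pyrimidines in the first 17 bases of its 3′ site, where the other members have 13 or 14 and the median intron has 13. Intron 5 of Car1 is poor in G and C, with a deposited GC content of 31.0%, above that of 2.57% of introns. Car2 intron 1 has 49.5%.

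The exon that the tabulated Car1 transcript skips has a counterpart of the same length in Car2, exon 2 (14887834 to 14888031), and both sequences are given because the genes keep exons of equal length at this place while the tabulated Car1 transcript leaves its own out. They come from the GENCODE release 21 transcripts on GRCm38, and capitals mark the 80 positions at which they differ.
Car1 exon 3: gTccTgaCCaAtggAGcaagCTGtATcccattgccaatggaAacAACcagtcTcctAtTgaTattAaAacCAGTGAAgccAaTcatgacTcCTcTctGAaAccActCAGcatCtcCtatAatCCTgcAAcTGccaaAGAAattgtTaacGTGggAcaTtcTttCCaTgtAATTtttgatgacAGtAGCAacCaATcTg
Car2 exon 2: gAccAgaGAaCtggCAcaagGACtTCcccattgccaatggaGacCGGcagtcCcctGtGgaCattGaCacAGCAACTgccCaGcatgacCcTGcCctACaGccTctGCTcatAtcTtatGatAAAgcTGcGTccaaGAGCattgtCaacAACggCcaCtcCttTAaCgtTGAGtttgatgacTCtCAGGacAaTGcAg

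These exons are the same at 118 of 198 bases, or 59.6%. Another 3 pairs of internal coding exons are of equal length in both genes, and identity there was 68.9% over 119 bases, 71.4% over 63 bases and 65.4% over 156 bases. Over the 4 pairs 347 of 536 bases were the same. Only pairs of equal length were compared, so their equal length is not a result. The pair that lies between them, Car1 exon 5 and Car2 exon 4, differs, with 96 and 93 bases. The introns after the 198-base exons also differ in length: intron 3 of Car1 has 1392 bases and intron 2 of Car2 has 6990.

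Reads at Car1 were frequent in the uninduced and nearly missing in the induced pool. At intron 1, 342 uninduced reads were counted against 1 induced read. Intron 4 had 190 uninduced reads, intron 5 had 178 and the exon 3 skipping intron had 17. None of these 3 introns has a line in the induced pool, and they were counted as 0, although the table also lists lines with 0 reads and does not say what a missing line means.

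Summed over all introns of the table, the pools held 416379 and 279371 counted reads, called observations here. Per 100000 observations, Car1 intron 1 had 82.1 uninduced reads (exact Poisson 95% interval 73.7 to 91.3) against 0.358 induced reads (0.00906 to 1.99). The uninduced level was 229 times the induced level, with an exact interval of the ratio from 40.9 to 9090, which is wide because of the single induced read. Against a floor of 3 counts in the induced pool, intron 4 was at least 42.5-fold lower and intron 5 at least 39.8-fold lower. The exact interval, which also takes in the counting error of the uninduced reads, has lower limits of 34.2 and 32.0 for these ratios.

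Car2 changed in the other direction. Its intron 1 had 141 uninduced and 348 induced reads, and its intron 2 had 85 and 232. Per 100000 observations, intron 1 had 33.9 uninduced reads (interval 28.5 to 39.9) against 124.6 induced reads (112 to 138), a ratio of 3.68 (exact interval 3.02 to 4.51). Intron 2 had 20.4 (16.3 to 25.2) and 83.0 (72.7 to 94.4), a ratio of 4.07 (3.16 to 5.28). Both introns were thus higher in the induced pool, by a like ratio.

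**Figure D2:**
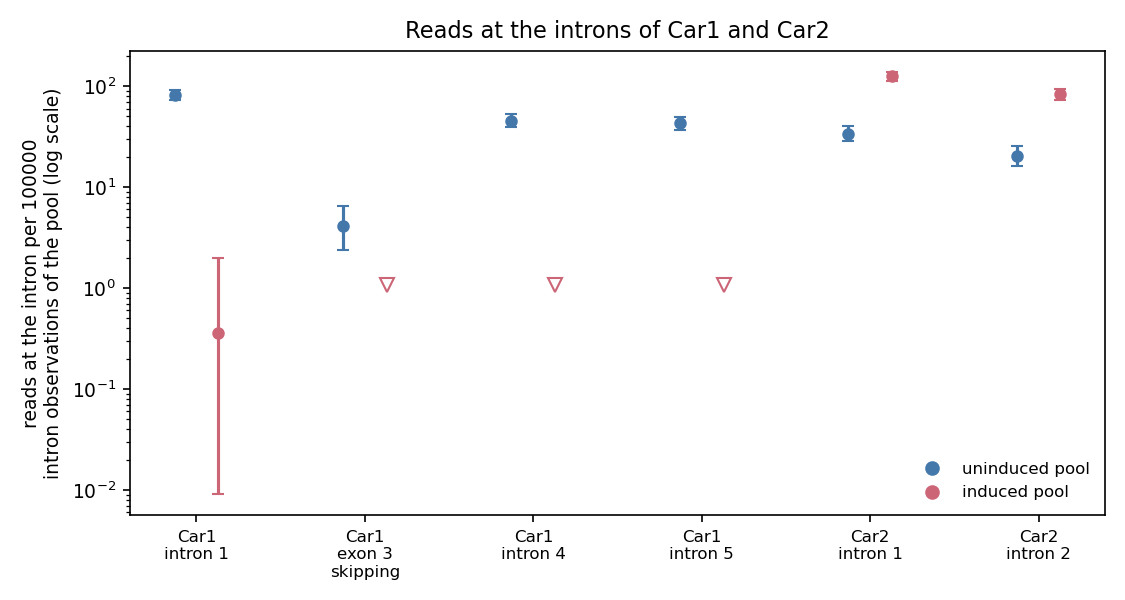
Reads at each intron per 100000 intron observations of its pool, on a log axis, with exact Poisson 95% intervals; open triangles stand at the floor of 3 counts for introns with no induced line. Car1 intron 1 lies at 82.1 before and 0.358 after induction, while both Car2 introns lie higher in the induced pool.

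Taken over all introns of a gene, Car1 had 727 uninduced observations and 1 induced, and Car2 had 226 and 580. By mean reads per intron, Car1 was 25th of the 1692 genes that had at least 100 observations over both pools, with 182 uninduced reads, and Car2 was 49th, with 113. In the induced pool Car2 was 5th, with 290, and Car1 had 0.250. These means depend on which introns are listed, and for Car2 these are introns 1 and 2 only. The order of the genes was thus Car1 over Car2 before induction and Car2 over Car1 after it. In MEL cells in bulk, fewer cells that transcribe a gene and less RNA of it per cell cannot be told apart.

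With 0.5 reads added to both counts, the log2 ratio of induced over uninduced reads was -8.35 for Car1, the second lowest of the 1692 genes, and 1.93 for Car2, the 91st highest. Of all these genes, 21.3% were at least 2-fold lower in the induced pool, as Car1 was, and 17.3% were at least 2-fold higher, as Car2 was. Both genes were picked from this contrast, so nothing is read from their place in it. Scaling by the median ratio over introns instead of the total shifts every log2 ratio by -0.254, which leaves Car2 at 1.68.

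**Figure D3:**
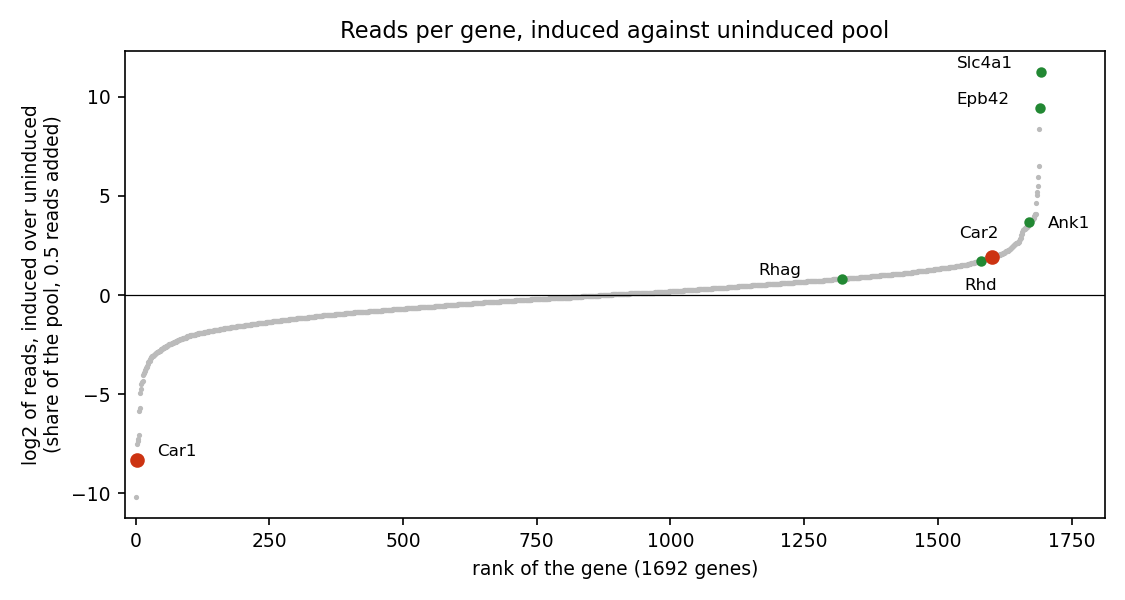
Log2 ratio of reads, induced over uninduced, as shares of the pool with 0.5 reads added, for 1692 genes in order of the ratio. Red points are Car1, at -8.35, and Car2, at 1.93; green points are the 5 genes of carbon dioxide and bicarbonate handling with enough reads.

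Car1 introns 4 and 5 and Car2 intron 2 had fewer reads than intron 1 of their gene. The exon 3 skipping intron, which lies between introns 1 and 4, had the fewest, 4.97% of those of intron 1. In the uninduced pool, Car1 intron 4 had 55.6% and intron 5 had 52.0% of the reads of intron 1. Car2 intron 2 had 60.3% of the reads of its intron 1 before induction and 66.7% after it. The end of the intron lies 30.0 kb from the transcript start for Car1 intron 1, 37.5 kb for intron 4 and 38.1 kb for intron 5, against 1.41 kb and 8.59 kb for the Car2 introns.

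Co-transcriptional splicing efficiency (coSE) is the share of spliced reads among the spliced and unspliced reads at an intron. In the uninduced pool, Car1 intron 1 was spliced in 311 of 342 reads, a coSE of 0.909 (Wilson 95% interval 0.874 to 0.935). Intron 4 was spliced in 173 of 190 reads, 0.911 (0.861 to 0.943), and intron 5 in 158 of 178 reads, 0.888 (0.833 to 0.926). These 3 values lay within each other's intervals. The introns differ in length from 574 to 29893 bases, and an effect of length on coSE was not tested. Introns of like length, from 0.5 to 2 times that of the member, had a median coSE of 1 for introns 1 and 4 and of 0.900 for intron 5. Of the 272 introns of a length like that of Car1 intron 1, 13.2% had a lower coSE than it.

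The exon 3 skipping intron stood apart. It was spliced in 2 of 17 reads, a coSE of 0.118 (interval 0.0329 to 0.343), and 1.42% of the 9982 uninduced introns with at least 10 reads were lower. Reads that join exon 2 to exon 3, as in Car1-201 and Car1-203, do not use this intron's junction, and whether any of them enters the 15 unspliced reads is not given in the sources used here. Set beside 311 reads spliced at intron 1 and 173 at intron 4, only 2 reads were counted in this table as spliced from exon 2 straight to exon 4. The spliced reads of this value belong to the skipping junction. Whether RNA that still holds introns 2 and 3 makes up the unspliced reads is not known, so the value is not read as a measure of their removal.

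Car2 was spliced in nearly all reads of both pools. At intron 1, 137 of 141 uninduced reads were spliced (coSE 0.972, interval 0.929 to 0.989), as were 340 of 348 induced reads, 0.977 (0.955 to 0.988). At intron 2, 81 of 85 uninduced reads were spliced, 0.953 (0.885 to 0.982), as were 230 of 232 induced reads, 0.991 (0.969 to 0.998). The difference, induced minus uninduced, was 0.00538 at intron 1 (Newcombe 95% interval -0.0224 to 0.0492) and 0.0384 at intron 2 (0.00219 to 0.107). With the introns added together it was 0.0182 (-0.00427 to 0.0520), where a long read over both introns may count at each. These intervals show the counting error of the differences and are not read as tests.

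As background, 1.61% of the 4403 introns with at least 10 reads in each pool passed a two-sided Fisher's exact test of this difference with Benjamini-Hochberg adjustment, which compares 2 pools and not 2 conditions. Both Car2 introns and no Car1 intron had that many reads, and no result of that test is given for them, since they were chosen on this contrast. Car2 intron 2 reached its values with the lowest 3′ score of the members. Introns with a 3′ score no higher had a median coSE of 0.875 over 223 uninduced introns and 0.891 over 160 induced introns. Introns of a length like that of Car2 intron 2 had a median coSE of 1 in both pools, and 36.5% of them before and 36.2% after induction were lower than it.

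In the uninduced pool, where both genes have values, Car1 had more unspliced reads than Car2. Added over introns, coSE was 0.886 for Car1, or 0.904 without the exon 3 skipping intron, and 0.965 for Car2. At single introns the intervals of Car1 introns 1 and 4 overlapped those of both Car2 introns, and that of Car1 intron 5 overlapped that of Car2 intron 2 and not that of Car2 intron 1.

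**Figure D4:**
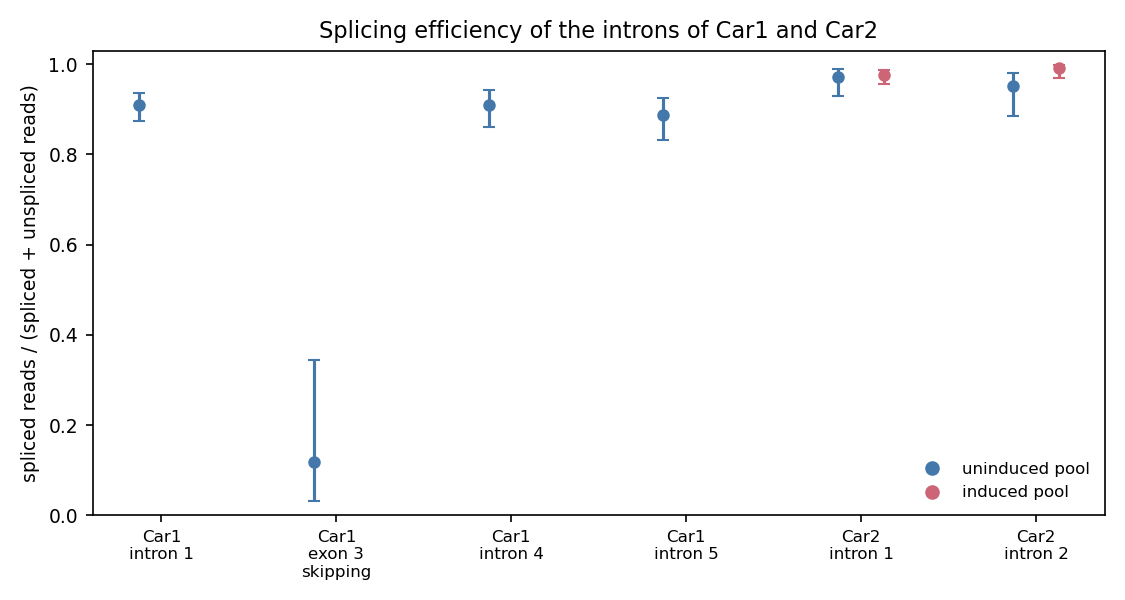
coSE of each intron with at least 10 reads, in the uninduced (blue) and induced (red) pool, with Wilson 95% intervals. The Car2 introns lie at 0.953 or above in both pools, Car1 introns 1, 4 and 5 lie between 0.888 and 0.911, and the exon 3 skipping intron lies at 0.118.

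The second table counts splicing intermediates, taken here to be RNAs cut at the 5′ splice site with the next exon not yet joined, and gives their share among intermediates and spliced reads as NIC. Its spliced counts equal those of the first table at Car1 intron 1 and, after induction, at Car2 intron 1, and are lower at every other line of the members (167 against 173 at Car1 intron 4), and the reason is not given in the sources used here. At Car1 intron 4 there were 53 intermediates beside 167 spliced reads in the uninduced pool, a NIC of 0.241 (Wilson 95% interval 0.189 to 0.302). It was the highest of the 266 uninduced introns with at least 100 such reads, of which 45.1% were at 0, and the 4th of 570 with at least 50. The genes were chosen with these values known, so nothing is read from that rank. Its 5′ site, with the intron bases GTaatg as printed above, had a score of 8.73 against a median of 8.78, and its 3′ site 8.84 against a median of 8.70.

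The other Car1 introns had fewer intermediates. Intron 1 had 0 beside 311 spliced reads, which allows a share of up to 0.965% by the floor of 3 counts (the Wilson upper limit of NIC is 0.0122). An RNA cut at its 5′ site would be exon 1 alone, 64 bases in Car1-203. Whether RNA that short was counted is not given in the sources used here, so the limit holds only if it was. Intron 5 had 7 beside 153, a NIC of 0.0438 (0.0214 to 0.0875). The interval of intron 4 lies above those of introns 1 and 5. The exon 3 skipping intron had 3 beside 1 spliced read, a NIC of 0.750 on 4 reads (0.301 to 0.954). Its 5′ splice site is also that of intron 2, so an RNA cut there does not show which of the introns would have been removed.

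At Car2, intron 1 had 0 intermediates, with 132 uninduced and 340 induced spliced reads, which allows shares of up to 2.27% and 0.882% by the floor of 3 counts (the Wilson upper limits of NIC are 0.0283 and 0.0112). Intron 2 had 6 beside 77 uninduced reads, a NIC of 0.0723 (0.0336 to 0.149), and 8 beside 221 induced reads, 0.0349 (0.0178 to 0.0674). In both pools the intermediates of Car2 were all at intron 2. It is the longer of the 2 introns and has the low 3′ score, and a link to either was not tested.

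**Figure D5:**
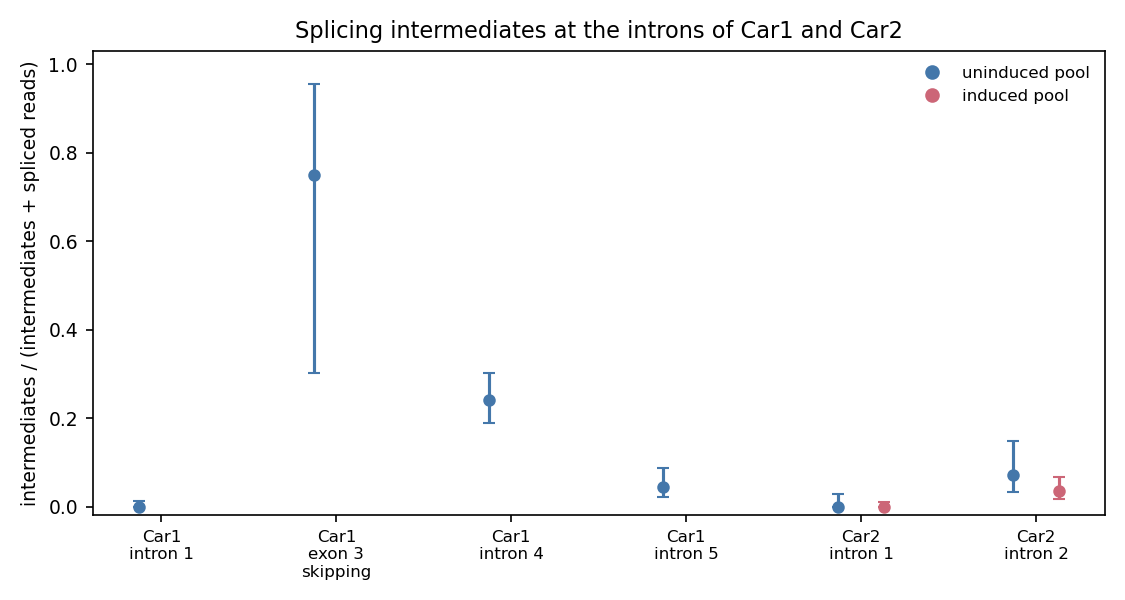
NIC, the share of intermediates among intermediates and spliced reads, at each intron in the uninduced (blue) and induced (red) pool, with Wilson 95% intervals. Car1 intron 4 lies at 0.241; the value of 0.750 at the exon 3 skipping intron rests on 4 reads.

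Of 14 other carbonic anhydrase genes, 4 had lines in the first table and none reached 100 observations. Car5b, a mitochondrial form, had 26 uninduced reads and no induced line. Car7, Car12 and Car15 had at most 9 reads in a pool. Car3, which lies between the members, and Car13, in the same cluster, had no line.

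Of 9 genes that handle carbon dioxide, bicarbonate or the complex around the anion exchanger in red cells, 5 had at least 100 observations. Among these, 4 were at least 2-fold higher in the induced pool and 0 at least 2-fold lower, against 17.3% and 21.3% of the 1692 genes. The list was drawn up with results of these data known, and the count supports nothing further: Slc4a1 and Epb42 reached 100 observations through the induced pool alone. Slc26a6 (8 uninduced reads and no induced reads) and Aqp1 (3 and 3) did not reach it. Slc4a1 had 0 uninduced and 817 induced reads, at least 406-fold higher against the floor of 3 counts. Epb42, a membrane protein that binds that exchanger, had 0 and 228, at least 113-fold higher. Ank1 (ankyrin), which ties it to the membrane skeleton, had 339 and 2954, a ratio of 13.0. Rhd, of the Rh complex, had a ratio of 3.28, near the 3.82 of Car2, and Rhag, a gas channel protein of that complex, had 1.76.

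The genes most like each member in the ratio of mean reads per intron and in coSE of the pools were found by Euclidean distance, each measure divided by its SD over the 1692 genes. This likeness is over 2 pools. For Car1 they were Dpp4, a cell surface peptidase (857 uninduced reads and no induced reads, distance 1.47), Lgals1, a galectin (113 and 0, distance 1.48), and Nme2, a nucleoside diphosphate kinase (100 and 0, distance 1.85). They have no induced coSE and were compared on 2 of the 3 measures, so the third adds nothing to their distance. Car1 itself entered that measure with a coSE of 1 from its single induced read. Genes with induced reads were compared with that value, so genes without any could come out nearer. For Car2 they were Eif2ak2, the kinase PKR (133 and 324 reads, coSE 0.970 and 0.988, distance 0.105), Ndrg3, of the N-myc downstream regulated family (51 and 121, distance 0.206), and Elmod2 (41 and 127, distance 0.212).

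The labelled cell type was checked against marker genes. All 10 erythroid markers had lines, with 141 observations per 100000 over the list before induction and 2422 after it. The globin gene Hba-a1 had 209 uninduced and 1886 induced reads, and Alas2, which starts heme synthesis in red cells, had 61 and 1536. Of the erythroid transcription factor genes, Gata1 had 91 and 128 reads, a ratio of 2.10 per 100000 observations, and Klf1 (9 and 11) and Tal1 (0 and 2) had few reads in both pools. Of 7 markers of other blood cells, Cd3e, Itgam, Csf1r and Mpo had no line. Ptprc (CD45) had 96 uninduced reads and no induced line, Pf4, a platelet gene, had 80 and 10, and Gp1ba had 0 and 8, and the list had 42.3 and 6.44 observations per 100000. Like Car1, Ptprc and Pf4 were lower in the induced pool; their part in the Car1 result was not tested.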

How the data were processed

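Long-read nascent RNA tables of MEL cells were used. The authors deposited raw read counts per intron and condition (spliced and unspliced; spliced and intermediates), per the file headers. The NIC fraction was deposited by the authors beside these counts and recomputed here. GC content of each intron was deposited by the authors as a percent. Each splice site has a score by the authors, used as deposited. The submitters' processing notes name cutadapt, minimap2, SAMtools, bedtools and Bowtie, with mm10 and dm3; counting rules and the scoring program are not given in the sources used here. Runs and replicates were already pooled.

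Introns were matched to GENCODE mouse release 21 by transcript ID (2 added to the deposited start, 1 taken from the end). Wilson, Newcombe and exact intervals at 95% and floors of 3 counts cover counting error only. coSE per intron needed at least 10 reads, and the distance between genes used any gene value with at least 1 read. Fisher's exact test ran over all introns with at least 10 reads in each pool, with Benjamini-Hochberg adjustment, and was tested on simulated data. Python 3.11.15, SciPy 1.17.1 and pandas 2.3.3 were used. Members, lists and rules were chosen with earlier results of these data known; all member introns were named, and 3 genes most like each member by the distance described. Some genes were left out of the lists and are not reported here.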

Additional observations from a re-analysis of the deposited data

How the results depend on the processing

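No paired analysis was possible because the tables give 1 pooled line per intron and condition, so leaving out a replicate and the replicate block could not be run either. Among values for a gene or the whole table, 30 alternatives stayed within the interval of the reported value or 1.5 times the count, and 11 moved. As a plain mean of introns, coSE of Car1 was 0.706; without intron 1, coSE of Car2 in the induced pool was 0.991. Scaled by the median ratio over introns, the log2 ratio of Car2 was 1.68. NIC of Car1 with introns added was 0.0906, and became 0.164 without intron 1 and 0.0211 without intron 4. NIC of Car2 was 0.0279 before induction and 0.0141 after it, and became 0.0723 and 0.0349 without intron 1 and 0 and 0 without intron 2. Of all introns, 71 passed Fisher's exact test, 36 with no minimum of reads and 552 with a difference of at least 0.2 as the rule. With intermediates added to the unspliced reads, coSE of Car1 intron 4 was 0.712 and of Car2 intron 2 in the induced pool 0.958. At a minimum of 20 reads the exon 3 skipping intron has no value. The ratio of Car1 without intron 1 has no value, since no induced read is left; with introns listed in both pools alone, an alternative added after the data were seen, its log2 ratio was -7.84 against -8.93 (both without the 0.5 reads that the report adds, where it is -8.35). Car1 has a single induced read, so no coSE is given for it there.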

Other observations

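Car1 was not alone among genes with many uninduced reads and next to no induced reads. The 5 lowest log2 ratios of the 1692 genes, named after their values were seen, belonged to Dpp4, Car1, Il1rl1, Muc13 and Lgals1. Il1rl1, which encodes the receptor for interleukin 33, had 135 uninduced and 0 induced reads, at least 30.2-fold lower against the floor of 3 counts, and Muc13, a transmembrane mucin, had 122 and 0, at least 27.3-fold lower. Dpp4 was at least 192-fold lower and Lgals1 at least 25.3-fold lower. By mean reads per intron in the uninduced pool, Car1, with 182, stood above the other 4, which had from 11.1 (Muc13) to 37.7 (Lgals1). By all uninduced reads of a gene, Dpp4, with 857 over 25 listed introns, stood above Car1, with 727 over 4.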
